A study of Mus musculus with 6 samples.

Results

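The RAF, MEK and ERK kinases form the chain of enzymes that carries a signal from RAS to the nucleus. The genes described here are *Araf* and *Braf*, which encode RAF kinases, *Map2k1* and *Map2k2*, which encode MEK1 and MEK2, *Mapk3*, which encodes ERK1, and *Ksr1*, which encodes a scaffold of the chain. They were chosen by gene name, with earlier results of these data known. Their 6 rows were taken from the 53657 gene names of each deposited count table. All 6 were detected in every sample and all 6 passed the expression filter, which kept 19656 genes. None differed between WT and *Hras* mutant cells by more than the spread between mice, and the level of *Ksr1* was low in 1 WT mouse.

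RAS proteins bound to GTP recruit RAF kinases to the membrane, RAF phosphorylates and activates MEK, and MEK phosphorylates and activates ERK, which then phosphorylates cytoplasmic kinases and transcription factors. KSR1 is related to RAF in sequence and holds RAF, MEK and ERK together. In undifferentiated spermatogonia (Aundiff), the testicular cells that include the spermatogonial stem cells, the growth factor GDNF acts through its receptor GFRA1 and RET, and RAS signalling is among the pathways below this receptor. The chain is switched on by phosphorylation, which RNA levels do not measure.

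RNA was sequenced from Aundiff of 6 adult male mice, each a separate sample. The 3 WT mice carried *Gfra1-creERT2* and *tdTom* fl/- without the flox-and-replace (FR) allele and were littermate controls, and the 3 MUT mice carried *Gfra1-creERT2*, *tdTom* fl/- and *FR-Hras G12V* fl/-. All 6 received 2 courses of tamoxifen, and cells were isolated 3 months later as tdTomato+ cells brightest for the surface protein MCAM. In both groups tamoxifen activated a Cre recombinase driven by the *Gfra1* promoter, which is active in Aundiff and not in testicular somatic cells, and switched on tdTomato at *Rosa26*. In MUT mice the same recombinase removed the WT gene copy of the FR allele, so that *Hras G12V* was read from the endogenous promoter beside a WT allele. The mice had a mixed background, the share of cells that had recombined was not analysed here, and the counts of a whole gene do not separate cells or alleles.

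The libraries held between 22729292 and 23550433 counts, and 3 counts corresponded to at most 0.132 CPM (counts scaled by library size, with TMM factors). *Hras*, the mutated gene, had between 1300 and 1542 counts in WT and between 1426 and 1600 in MUT, so its level did not separate the groups. The 10 genes listed as markers of undifferentiated spermatogonia, among them *Gfra1*, *Mcam* and *Zbtb16*, summed to between 3084 and 3535 CPM. The list also holds *Dazl* (836.6 to 959.3 CPM) and *Ddx4* (481 to 527.2 CPM), which are general germ cell genes. Its sum is therefore not specific to these cells. Markers of other cells were also present: the 4 spermatid markers summed to between 471 and 1172 CPM, the 5 macrophage markers to between 550 and 1049 CPM, and the 6 Sertoli cell markers to between 25.1 and 36.7 CPM. No marker of the 10 cell type lists examined was at or under 3 counts in all 6 samples.

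Because both MEK genes and both RAF genes are paralogs, the part of each pair that is most alike is shown first, since it limits how well reads of the members can be told apart. Positions start at 1 with the A of the start codon of a GENCODE transcript of each gene, and capitals mark the bases that differ within the pair. The window of *Map2k1* runs from coding base 379 to 458 and that of *Map2k2* from 391 to 470, in GRCm38.
Map2k1: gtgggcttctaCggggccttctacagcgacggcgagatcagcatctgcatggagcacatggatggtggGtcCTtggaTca
Map2k2: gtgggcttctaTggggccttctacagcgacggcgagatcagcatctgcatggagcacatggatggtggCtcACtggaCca

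The coding sequences of *Map2k1* (1182 bases) and *Map2k2* (1206 bases) were identical at 922 of 1178 aligned bases, or 78.3%. Their longest shared run was 56 bases, the stretch of small letters in the middle of both windows. It held 7 runs of 50 bases, the read length, so that a read could fall wholly within it. These 7 made up 0.207% of the runs of 50 bases of *Map2k1* transcripts and 0.122% of those of *Map2k2*, and *Map2k1* and *Map2k2* shared no such run with any other gene. The counts of the MEK genes were therefore nearly free of shared sequence.

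The RAF genes were less alike, as their most similar stretch shows. The window of *Araf* runs from coding base 1126 to 1166 and that of *Braf* from 1684 to 1724.
Araf: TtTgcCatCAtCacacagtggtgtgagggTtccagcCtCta
Braf: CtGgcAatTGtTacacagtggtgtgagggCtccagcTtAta

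*Araf* and *Braf* were identical at 1168 of 1795 aligned coding bases, or 65.1%, and their longest shared run of 17 bases is far shorter than a read. The runs of 50 bases that they shared with other genes, 1.13% for *Araf* and 0.691% for *Braf*, were not shared with each other. Of *Mapk3* 0.0428% and of *Ksr1* 1.47% of such runs occurred in another gene. Exons of other genes covered 1.05% of the exon bases of *Braf* (*Ndufb2*, on the opposite strand) and 2.62% of those of *Ksr1* (RP23-12I13.2, on the opposite strand). Fragments overlapping both genes of such a pair were not counted, since strand was not used.

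*Araf*, on the plus strand at chrX:20797814-20860519 (GRCm38), had 1344, 1425 and 1431 counts in WT replicates 1, 2 and 3 and 1402, 1445 and 1416 counts in MUT replicates 1, 2 and 3. Its level averaged 60.0 ± 1.15 CPM in the WT mice and 61.5 ± 1.09 CPM in the MUT mice (SD, n = 3 each). The 6 mice lay within 1.07-fold of each other and the groups overlapped. The log2 fold change of MUT over WT was 0.034 (SE 0.061, 95% interval -0.10 to 0.17, adjusted p = 0.998 by the quasi-likelihood test of edgeR, Benjamini-Hochberg). This interval corresponds to between 0.931-fold and 1.13-fold of the WT level.

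*Braf*, whose product is the RAF kinase with the highest basal activity, lies on the minus strand at chr6:39603237-39725463. It had 1428, 1488 and 1358 counts in the WT replicates and 1404, 1601 and 1557 counts in the MUT replicates. The highest values were those of MUT replicates 2 and 3 and the lowest that of WT replicate 3, but MUT replicate 1 lay below WT replicates 1 and 2. The level was 61.1 ± 3.29 CPM in the WT mice and 65.8 ± 4.09 CPM in the MUT mice (SD, n = 3 each), with a log2 fold change of 0.11 (SE 0.075, 95% interval -0.066 to 0.28, adjusted p = 0.998 from edgeR).

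*Map2k1*, on the minus strand at chr9:64185770-64253631, had 2661, 2587 and 2536 counts in WT and 2555, 2510 and 2353 counts in MUT. MUT replicate 3 was the lowest sample and WT replicate 1 the highest, while the CPM of MUT replicates 1 and 2 lay within the WT range. The level was 111.3 ± 4.61 CPM in the WT mice and 107.0 ± 5.77 CPM in the MUT mice (SD, n = 3 each), with a log2 fold change of -0.057 (SE 0.069, 95% interval -0.21 to 0.10, adjusted p = 0.998 from edgeR).

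*Map2k2*, on the plus strand at chr10:81105915-81133975, had the most counts of the 6 genes, with 3771, 4114 and 4174 in WT and 4224, 4201 and 3799 in MUT. WT replicate 1 and MUT replicate 3 were the low samples, so that each group held a low mouse. The level was 172.3 ± 6.54 CPM in the WT mice and 176.4 ± 12.2 CPM in the MUT mice (SD, n = 3 each), with a log2 fold change of 0.034 (SE 0.074, 95% interval -0.14 to 0.20, adjusted p = 0.998 from edgeR).

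*Mapk3*, the only ERK gene among the members, lies on the plus strand at chr7:126759601-126765819 and is the shortest of them. It had 3392, 3341 and 3637 counts in WT and 3503, 3389 and 3564 counts in MUT. Replicate 2 was the lowest sample in each group, and the CPM range of MUT lay within that of WT. The level was 148.2 ± 5.47 CPM in the WT mice and 150.8 ± 3.34 CPM in the MUT mice (SD, n = 3 each), with a log2 fold change of 0.025 (SE 0.063, 95% interval -0.12 to 0.17, adjusted p = 0.998 from edgeR).

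*Ksr1*, on the minus strand at chr11:79013440-79146407, had 1379, 1412 and 983 counts in WT and 1445, 1355 and 1386 counts in MUT. WT replicate 3, at 41.6 CPM, stood below the other 5 mice, which lay between 58.8 and 63.2 CPM. The level was 54.1 ± 10.8 CPM in the WT mice and 60.4 ± 2.41 CPM in the MUT mice (SD, n = 3 each), with a log2 fold change of 0.16 (SE 0.136, 95% interval -0.15 to 0.47, adjusted p = 0.998 from edgeR). Without WT replicate 3 the log2 fold change was 0.0020, and the highest of the 5 remaining mice exceeded the lowest by 1.07-fold, against 1.52-fold with it.

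**Figure D1:**
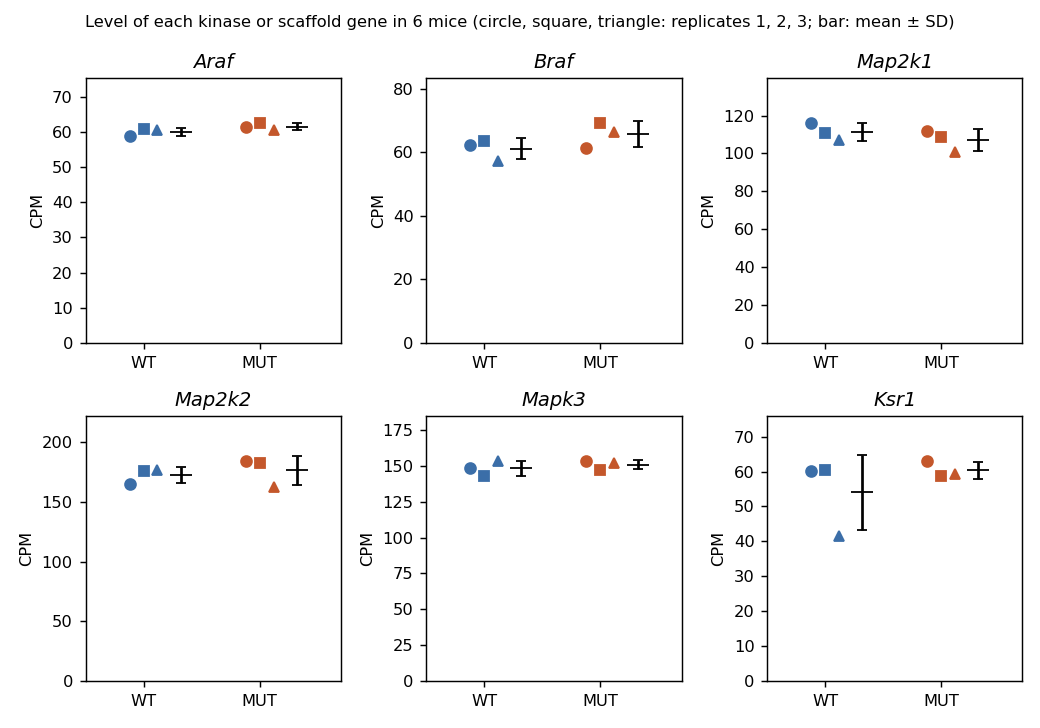
Normalized level in CPM (vertical axes, from 0) of each of the 6 genes in the WT and MUT mice. Circles, squares and triangles are replicates 1, 2 and 3, and the bars give the mean ± SD of 3 mice; the groups overlap for every gene, and *Ksr1* in WT replicate 3, at 41.6 CPM, is the point farthest from its group.

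With the false discovery rate (FDR) set to 0.1, 0 of the 6 genes passed edgeR's test, where 0.0102% of all genes tested did (2 of 19656). No member reached an unadjusted p under 0.05, against 2.78% of all genes tested (1.34% higher and 1.44% lower in MUT). The other fits also called 0 of the 6 members, where DESeq2 called 0.0241% of its genes, edgeR with the replicate number as a block 0.0661% and DESeq2 with that block 0.148%. An unadjusted p under 0.05 was reached with the block by 6.6% of all genes in edgeR and 1.64% in DESeq2, and by none of the members. WT and MUT values overlapped for all 6, while they did not overlap for 7.69% of all genes tested. The exact two-sided permutation test over the 20 assignments of the mice gave p between 0.2 (*Araf*) and 0.7 (*Mapk3*), and the smallest p that 3 mice against 3 allow is 0.1. The labels do not say whether samples of the same replicate number are pairs. Taken as pairs, *Araf* was above in MUT in 3 of 3 and *Map2k1* below in 3 of 3 (exact two-sided sign-flip permutation p = 0.25 both times, and 3 pairs cannot give less). The other members differed in direction between such pairs. The median of the absolute log2 fold change over the 10583 genes above 10 CPM was 0.061, and *Araf*, *Map2k1*, *Map2k2* and *Mapk3* lay below it. For all 6 members the 95% interval lay within a change of 1.5-fold either way, as it did for 92% of the genes above 10 CPM. In sorted cells, fewer cells of a type and less RNA per cell cannot be told apart.

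The members differed in how much they varied among mice. The coefficient of variation over the 6 mice was 2.10% for *Araf*, 2.87% for *Mapk3*, 4.79% for *Map2k1*, 5.18% for *Map2k2*, 6.60% for *Braf* and 13.7% for *Ksr1*. The median over the 10583 genes above 10 CPM was 7.51%, so that *Ksr1* alone of the 6 lay above it. This measure includes counting error, which is larger for genes with fewer counts, and genes of like level were not compared separately. Counting error by itself amounted to between 1.57% and 2.75%, and for *Araf* it was 2.66%, above the variation measured. By edgeR's estimate of the variation beyond counting error, *Araf* and *Mapk3* stood at the percentiles 2.03 and 2.07 of the genes above 10 CPM, and *Ksr1* at 78.0.

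Relative to its own mean over the 6 mice, *Ksr1* was at 72.6% in WT replicate 3 and *Braf* at 90.5%, the lowest value of each, while *Mapk3* was at 102.8% there. WT replicate 3 also differed most from its group over all genes: the chi-square statistic of its counts, divided by the degrees of freedom, was 24.5 with WT replicate 1 and 18.2 with WT replicate 2, against 5.16 between WT replicates 1 and 2. Among the 6 mice it had the highest summed level of the 4 spermatid markers (1172 CPM, against 471 to 932), of the 5 spermatocyte markers (251 CPM, against 159 to 225), of the 5 macrophage markers (1049 CPM, against 550 to 713) and of the 4 B and plasma cell markers (72.5 CPM, against 4.38 to 45.0). It had the lowest sum of the 10 genes listed for undifferentiated spermatogonia (3084 CPM, against 3193 to 3535). *Zbtb16*, *Sall4*, *Lin28a* and *Ddx4* were lowest in this mouse, while the other genes of that list, *Gfra1*, *Mcam* and *Dazl* among them, were not. The part of these differences between mice in the low *Ksr1* value was not tested.

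**Figure D2:**
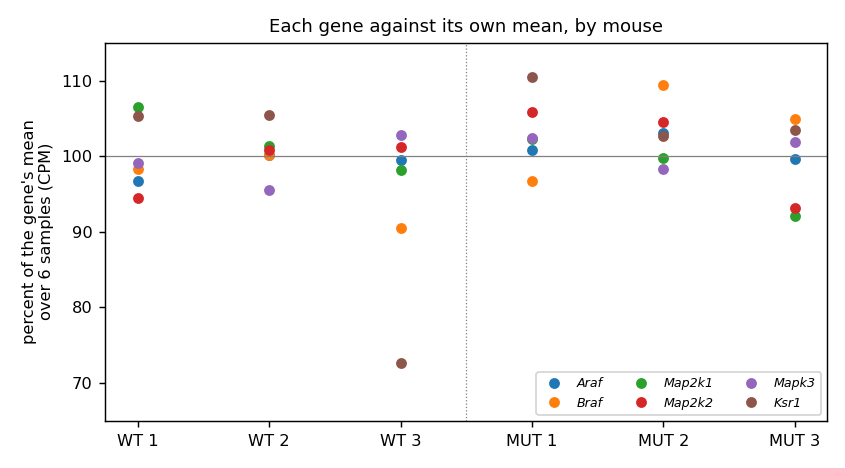
Level of each gene in each mouse as a percentage of that gene's mean CPM over the 6 mice (vertical axis, not starting at 0), with WT mice left and MUT mice right of the dotted line. *Ksr1* in WT replicate 3 lies at 72.6%, and the other values lie between 90.5% (*Braf*, in the same mouse) and 110.4% (*Ksr1*, MUT replicate 1).

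Levels were compared between genes as CPM per kilobase of the exon union given in the count tables. *Mapk3* had the highest level, 66.3 ± 1.90 CPM per kilobase (SD, n = 6), at percentile 97.1 of all genes tested. *Map2k1* followed with 32.2 ± 1.54 and *Map2k2* with 30.8 ± 1.59 CPM per kilobase, at the percentiles 90.8 and 90.3. *Araf* with 9.29 ± 0.195, *Ksr1* with 8.06 ± 1.10 and *Braf* with 4.58 ± 0.302 CPM per kilobase lay lower, the last at percentile 53.4. The level per kilobase thus fell from ERK1 through the MEK genes to the RAF genes and the scaffold.

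Each gene was then compared with the next in this order within mice, by an exact two-sided sign-flip permutation test with adjustment over the 5 pairs. The smallest p over 6 mice is 0.03125. The order was taken from these same values and each length is the same in every mouse. A p at that minimum says only that all 6 mice agreed in direction, not how alike they were. The p-values are therefore no support for the order. *Mapk3* exceeded *Map2k1* by 2.06-fold, *Map2k2* exceeded *Araf* by 3.31-fold, *Araf* exceeded *Ksr1* by 1.16-fold and *Ksr1* exceeded *Braf* by 1.75-fold. Each did so in 6 of 6 mice (exact permutation p = 0.03125, adjusted p = 0.0391). *Araf* over *Ksr1* ranged from 1.05-fold to 1.58-fold, the highest being that of WT replicate 3, where *Ksr1* was low. *Map2k1* and *Map2k2* overlapped and differed by 1.05-fold, with *Map2k1* higher in 5 of 6 mice (exact permutation p = 0.0625, adjusted p = 0.0625). With the length of the longest transcript in place of the exon union, *Map2k2* lay above *Map2k1* (72.5 ± 3.75 against 44.8 ± 2.15 CPM per kilobase, SD, n = 6), so the order of the MEK genes depended on the length used. The step from *Araf* to *Ksr1* rose to 2.06-fold with that length, and the other neighbours kept their order.

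**Figure D3:**
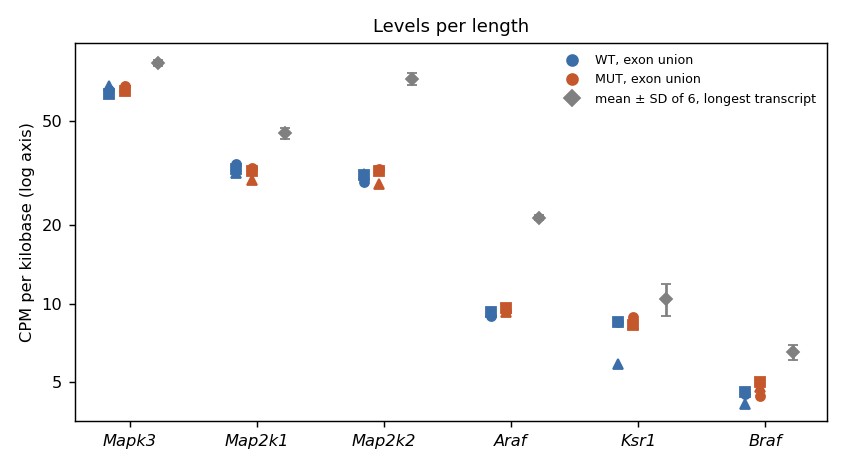
Level in CPM per kilobase (vertical axis, logarithmic) of the 6 genes in the order of their mean. Blue and orange points are WT and MUT mice with the length of the exon union, with the replicate shapes circle, square and triangle, and grey diamonds are the mean ± SD of the 6 mice with the length of the longest transcript, which places *Map2k2* (72.5) above *Map2k1* (44.8).

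The balance between paralogs was compared between the groups as a ratio within each mouse. *Map2k2* had 1.42, 1.59 and 1.65 counts per count of *Map2k1* in WT replicates 1, 2 and 3 and 1.65, 1.67 and 1.62 in the MUT replicates. WT replicate 1 had the lowest ratio, and the groups overlapped. Per kilobase the ratio was 0.929 ± 0.0714 in the WT mice and 0.986 ± 0.0180 in the MUT mice (SD, n = 3 each), a log2 difference of 0.089 (exact two-sided permutation p = 0.2, adjusted p = 0.4 over the 2 ratios).

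*Araf* had 0.941, 0.958 and 1.05 counts per count of *Braf* in WT and 0.999, 0.903 and 0.909 in MUT. WT replicate 3, the mouse with the lowest *Braf* level, had the highest ratio, and the groups overlapped. Per kilobase the ratio was 2.09 ± 0.129 in the WT mice and 1.99 ± 0.114 in the MUT mice (SD, n = 3 each), a log2 difference of -0.071 (exact two-sided permutation p = 0.4, adjusted p = 0.4 over the 2 ratios).

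The 4 lists of other genes of the pathway, written with earlier results of these data known, were examined beside the members. Of the scaffolds, chaperones and binding proteins of RAF, MEK and ERK, 27 genes were tested, 0 rose and 0 fell at an FDR of 0.1, and 0 had an unadjusted p under 0.05. Their median log2 fold change was 0.027, against 0.0066 over all genes tested. The WT and MUT values did not overlap for 1 of the 27, *Cnksr3*, a member of the family of CNK scaffolds, where MUT lay above WT without overlap for 4.69% of all genes tested. It measured 31.5, 31.2 and 27.6 CPM in WT and 35.6, 35.6 and 31.8 CPM in MUT (log2 fold change 0.19, SE 0.090, adjusted p = 0.998 from edgeR). The HSP90 chaperone genes, whose products stabilise RAF kinases, were the most abundant of the list, and *Hsp90ab1* measured 2096 ± 49.96 CPM in WT and 2303 ± 141.2 CPM in MUT (SD, n = 3), with overlapping groups.

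Of the 17 other MAP kinases and MAP kinase kinases, 0 rose and 0 fell, 0 had an unadjusted p under 0.05, and the median log2 fold change was -0.010. The groups did not overlap for 3 of the 17, 1 with MUT above and 2 with MUT below, where 4.69% and 3% of all genes tested did so. *Nlk*, an atypical MAP kinase, was above in MUT with a log2 fold change of 0.14 (95% interval -0.027 to 0.30). *Mapk9*, which encodes JNK2, and *Map2k7*, which encodes a kinase that activates JNK, were below in MUT by small amounts, with log2 fold changes of -0.072 and -0.048. None of the 3 passed edgeR's test (adjusted p = 0.998 for each). By the mean of all 6 mice, the most abundant genes of this list were *Mapk6*, with 201.8 ± 5.07 CPM (SD, n = 3) in WT and a log2 fold change of 0.059, and *Mapk7*, which encodes ERK5, with 167.9 ± 10.3 CPM (SD, n = 3) in WT and a log2 fold change of 0.065.

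Of the 17 kinases and transcription factors that ERK phosphorylates, 0 rose and 0 fell, 0 had an unadjusted p under 0.05, and the median log2 fold change was 0.034. *Elk1*, a transcription factor of the ETS family, was the only gene of this list whose groups did not overlap, with MUT above, as for 4.69% of all genes tested. It measured 40.6, 41.6 and 33.5 CPM in WT and 47.6, 41.8 and 44.7 CPM in MUT, with the gap between the groups set by WT replicate 2 and MUT replicate 2 (log2 fold change 0.21, SE 0.101, adjusted p = 0.998 from edgeR). Without WT replicate 3 its log2 fold change was 0.12. With the replicate number as a block its unadjusted p was 0.0461 in edgeR, so that 1 of the 17 came under 0.05 where 6.6% of all genes did, and 0.0960 in DESeq2. The ERK-activated kinase genes *Mknk2* and *Rps6ka1* were the most abundant, and their log2 fold changes were 0.048 and 0.081.

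Of the 23 genes that ERK signalling is known to induce, 0 rose and 0 fell at an FDR of 0.1. Their median log2 fold change was -0.14, and 16 of the 23 values were below 0, where 51.9% of all genes tested had values above 0. All 23 genes were listed with earlier results of these data known, so these values and the counts below are a description and no test. Without WT replicate 3, the library with the highest macrophage and spermatid markers, the median was -0.049, and without MUT replicate 2 it was -0.079. An unadjusted p under 0.05 was reached by 3 of the 23, all with lower values in MUT, where 1.44% of all genes tested reached it in that direction. Under the replicate block, 4 of the 23 came under 0.05 in edgeR (6.6% of all genes) and 3 in DESeq2 (1.64% of all genes). In edgeR the block added *Ier3*, named after its values were seen, with an unadjusted p of 0.0425. In DESeq2 *Ier3* came under 0.05 both without the block (unadjusted p = 0.0427) and with it (0.0488). *Spry1* came under 0.05 in DESeq2 without the block (0.0295) but not with it (0.0663). Groups did not overlap for *Egr2* and *Spry1*, both below in MUT, as was the case for 3% of all genes tested.

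*Egr2*, an immediate-early transcription factor, measured 114.1, 115.4 and 104.8 CPM in WT and 100.7, 94.1 and 77.1 CPM in MUT. The log2 fold change was -0.30 (SE 0.101, 95% interval -0.53 to -0.067, adjusted p = 0.998 from edgeR), and MUT replicate 3 was the lowest sample. Without that mouse, which also had the highest sum of the 6 Leydig cell markers (67.3 CPM, against 12.9 to 21.1), the log2 fold change was -0.19. *Spry1*, an inhibitor of receptor tyrosine kinase signalling, measured 21.8, 23.4 and 24.5 CPM in WT and 20.7, 18.1 and 18.4 CPM in MUT, with a log2 fold change of -0.28 (SE 0.101, adjusted p = 0.998 from edgeR). *Dusp6*, a phosphatase of ERK, measured 136.5, 127.2 and 128.1 CPM in WT and 127.3, 99.2 and 103.5 CPM in MUT, so that MUT replicate 1 reached the WT values. Its log2 fold change was -0.25 (SE 0.098, adjusted p = 0.998 from edgeR), and -0.37 without MUT replicate 1.

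The most abundant genes of this list did not separate the groups. *Fos* measured 443.9 ± 87.8 CPM in WT and 409.4 ± 29.3 CPM in MUT (SD, n = 3), with WT replicate 3 highest at 542.5 CPM. *Egr1* measured 392.7 ± 54.8 CPM in WT and 390.1 ± 30.8 CPM in MUT (SD, n = 3). The 4 markers of differentiating spermatogonia (*Kit*, *Stra8*, *Dmrtb1* and *Sohlh1*) summed to 502, 563 and 545 CPM in WT and 592, 726 and 588 CPM in MUT. This was the only one of the 10 cell type sums in which the groups did not overlap. For single genes, that was so for 7.69% of all genes tested. Of the 4 markers, *Stra8* separated the groups (159 to 174.6 CPM in WT, 184.6 to 242.5 CPM in MUT), while *Kit*, *Dmrtb1* and *Sohlh1* overlapped. The sums overlapped for macrophages (617 to 1049 against 550 to 685 CPM), spermatids (680 to 1172 against 471 to 893 CPM) and B and plasma cells (13.8 to 72.5 against 4.38 to 17.6 CPM), and the part of other cells in the values of this list was not tested.

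**Figure D4:**
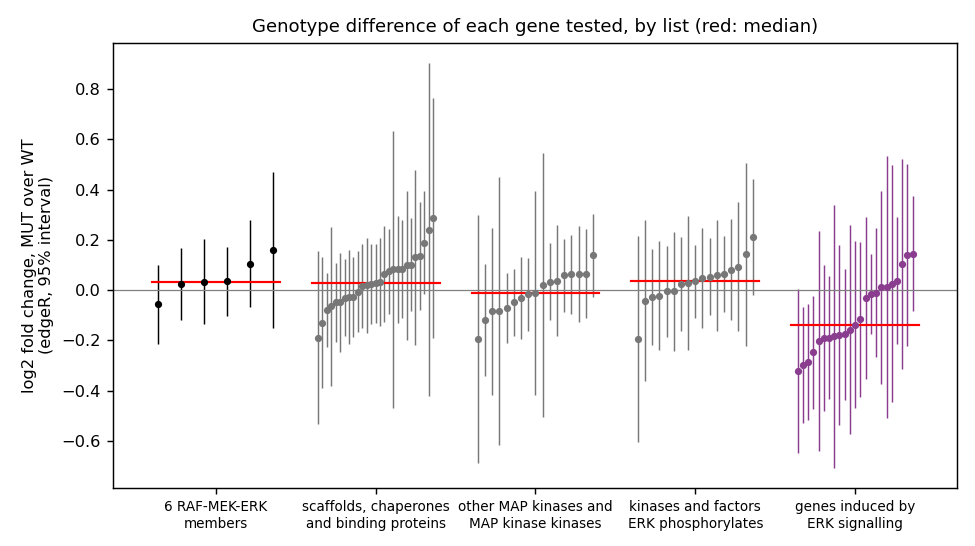
Log2 fold change of MUT over WT (vertical axis) of every gene tested in the 6 members and the 4 lists, each point with its 95% interval from edgeR, ordered by value within a list, and with the median as a red line. The medians lie between -0.14 (genes induced by ERK signalling) and 0.034, and no gene passed an FDR of 0.1.

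The genes of these lists with the pattern most like each member over the 6 mice were found by the root mean square difference of log2 deviations from the gene's own mean, over 75 candidate genes above 10 CPM. They were *Lamtor2* for *Araf* (0.026), *Mapk8* for *Braf* (0.059), *Spred1* for *Map2k1* (0.029), *Phb2* for *Map2k2* (0.027), *Ywhaz* for *Mapk3* (0.038) and *Elk1* for *Ksr1* (0.088). The next most alike were *Mknk1* for *Araf* (0.029), *Mapk6* for *Braf* (0.065), *Creb1* for *Map2k1* (0.037), *Map2k5* for *Map2k2* (0.028), *Rps6ka5* for *Mapk3* (0.041) and *Spred2* for *Ksr1* (0.12). *Elk1* shared with *Ksr1* its lowest value in WT replicate 3 and its highest in MUT replicate 1. Deviations were not scaled, so genes that varied little were matched mainly with others that varied little. *Araf* varied by less than its counting error, so its matches need not reflect a shared pattern. All values of a mouse come from the same library, and the differences are a description.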

How the data were processed

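RNA from tdTomato+ MCAM-bright Aundiff of 3 WT and 3 MUT mice was sequenced as stranded mRNA libraries with paired reads of 50 bases, and groups and replicate numbers were taken from the sample labels. Per the labels and the study's methods, the values the authors deposited are raw fragment counts by gene name, made with featureCounts 1.6.2 on GENCODE vM17 with tdTomato added, disregarding strand and leaving out multi-mapping and ambiguous fragments. The deposited tables also give the length of each gene's exon union. STAR and GRCm38.p6 are named in the submitters' processing notes, and the version of STAR is not given in the sources used here. Such counting undercounts genes that share sequence or overlap.

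Counts were normalized by TMM in edgeR 4.0.16 (R 4.3.3), filtered with filterByExpr and tested over all 19656 genes with the quasi-likelihood test, with no term but genotype and with p-values adjusted by Benjamini-Hochberg (FDR 0.1, the rate the study used with DESeq2). Log2 CPM used a prior count of 2. Single values were tested by exact permutation. Limits from depth cover counting error only. DESeq2 1.42.0, limma 3.58.1, DESeq2 size factors, other filters, an FDR of 0.05, the replicate block and each sample left out were alternatives. Scripts were tested on simulated counts. Shared sequence was computed from GENCODE vM21 on the same build, whose exons held 100% of the members' exon bases.

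Deviations from the group means over 10583 genes above 10 CPM correlated by 0.304, 0.156 and 0.395 between WT and MUT samples numbered 1, 2 and 3. WT replicate 2 and MUT replicate 1 correlated by 0.326, so these correlations do not single out a pairing by number. The labels do not say what the number marks. It was therefore used as a block in alternative fits and not in the main test. The study names littermate controls without saying which mice were paired. The p-values of the group comparisons set a difference against the variation between these 6 mice.

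The members and lists were chosen with earlier results of these data known. The genes named are the members, *Hras*, the genes of each list with an adjusted p under 0.1, an unadjusted p under 0.05 or groups that did not overlap, the 2 of each list with the highest mean CPM, and the 2 most alike to each member. Of 28 scaffolds, chaperones and binding proteins listed, 27 were found by name.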

Additional observations from a re-analysis of the deposited data

How the results depend on the processing

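With the replicate number as a block, edgeR and DESeq2 called 0 of the 6 members and 0 genes of the 4 lists, as without it, although the block raised the calls over all genes to 13 in edgeR (2 without it) and 55 in DESeq2 (9 without it). Among the members and the 4 lists, the block changed no call at an FDR of 0.1. The unadjusted p-values that it moved across 0.05 are those of *Elk1* and *Ier3* in edgeR and *Spry1* in DESeq2. Over 7 settings (other tests, size factors, filters and the block), the log2 fold changes lay between 0.022 and 0.038 for *Araf*, 0.094 and 0.11 for *Braf*, -0.069 and -0.053 for *Map2k1*, 0.021 and 0.038 for *Map2k2*, 0.012 and 0.028 for *Mapk3* and 0.15 and 0.18 for *Ksr1*, whose adjusted p of 0.868 in a fit with the block was the lowest. In WT or MUT mice alone, 3 sign flips cannot give an exact p below 0.25, and the log2 ratios were 1 and 1.08 for *Mapk3* to *Map2k1*, 1.73 and 1.73 for *Map2k2* to *Araf*, 0.29 and 0.15 for *Araf* to *Ksr1* and 0.77 and 0.84 for *Ksr1* to *Braf*. With the longest transcript as length, *Map2k1* to *Map2k2* turned to -0.69 (exact permutation p = 0.03125), which follows from the lengths. When each mouse was left out in turn, the log2 fold change ranged from 0.0075 to 0.047 for *Araf* (lowest without MUT replicate 2), from 0.052 to 0.15 for *Braf* (lowest without MUT replicate 2), from -0.095 to -0.013 for *Map2k1* (nearest 0 without MUT replicate 3), from 0.0020 to 0.24 for *Ksr1* (lowest without WT replicate 3), from -0.0069 to 0.091 for *Map2k2* (below 0 without WT replicate 1, at -0.0061, MUT replicate 1, at -0.0069, or MUT replicate 2, at -0.0037), from -0.014 to 0.052 for *Mapk3* (below 0 without WT replicate 2), from -0.014 to 0.096 for *Mapk7*, from -0.015 to 0.093 for *Mknk2*, from -0.24 to 0.053 for *Fos* and from -0.11 to 0.095 for *Egr1*, and the cause was not tested. The plain difference of mean log2 CPM ranged from -0.0021 to 0.090 for *Map2k2* and from -0.0016 to 0.052 for *Mapk3*. The list medians ranged from -0.0011 to 0.038 for scaffolds, chaperones and binding proteins, from -0.032 to 0.015 for other MAP kinases, from 0.0042 to 0.081 for proteins that ERK phosphorylates and from -0.17 to -0.049 for genes induced by ERK signalling (nearest 0 without WT replicate 3). Each fit called 0 genes of the members and lists. The median width of the 95% interval of the log2 fold change was 0.43 over genes above 10 CPM, which limits how small a difference could be told from 0, and phosphorylation was not measured.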

Other observations

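The promoters of the members were also read, as 300 bases from 250 before to 50 after a gene's start in RefSeq on GRCm38.p6. The table matched 5 of the 6 members with 6 promoters, *Ksr1* having 2, and *Mapk3* had no entry. Letters of 4 motifs were searched on both strands: the GC box GGGCGG, the CCAAT box, the core TGACGT of the cAMP response element (CRE) and the core CCGGAAG bound by ETS factors. These occur in 35.7%, 37.4%, 7.51% and 8.86% of the 32851 promoters of the same length. The CRE core was found in *Braf* (2 matches), *Map2k1* (1) and the promoter of *Ksr1* at chr11:79146424-79146723 (1). This first promoter of *Ksr1* lies outside the gene as given in GENCODE, which reaches to 79146407. The end of its sequence was found in no GENCODE transcript of *Ksr1*. The GC box was found in *Braf* (1), *Map2k1* (4), *Map2k2* (2) and both promoters of *Ksr1* (2 and 1), the CCAAT box in *Araf* (3), *Map2k1* (2) and the first promoter of *Ksr1* (1), and the ETS core in none of the 6 promoters. The ratio of observed to expected CpG was 0.691 in *Araf*, 0.947 in *Braf*, 0.873 in *Map2k1*, 1.02 in *Map2k2* and 0.989 and 0.151 in *Ksr1*, against a median of 0.384 over all promoters. These matches describe letters and not binding, which was not measured in these samples.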
